A study of Mus musculus with 4 samples.

Results

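The comparison described here was that of brown preadipocytes with and without MLL4 at day 2 of adipogenesis. It used the RNA-Seq libraries of Ad-Cre and Ad-GFP at day 2, which are 2 of the 4 libraries of the series, and every RefSeq transcript listed for them. Each of the 22463 gene symbols was represented by its transcript with most reads over the 4 libraries. Genes were counted when their RPKM (the authors' measure of reads per exon length and mapped reads) was above 1 in at least 1 of the day 2 libraries, which 11280 were. Of these, 10298 passed in both libraries, 479 through the Ad-GFP library alone and 503 through the Ad-Cre library alone.

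All cells came from *Mll3*-/- *Mll4* f/f E18.5 embryos of strain C57BL/6J and were immortalized with the SV40 T antigen. Ad-GFP, an adenovirus that expresses green fluorescent protein, left *Mll4* in place, so that the control cells, which the labels call WT, were *Mll3*-/-. Ad-Cre, which expresses the Cre recombinase, gave the *Mll3*-/- *Mll4*-/- cells, so that by the labels both kinds of cells were *Mll3*-/-. They are called GFP cells and Cre cells below, after the virus they received. Cells were collected after confluence (day 0) and 2 days after insulin, T3, indomethacin, dexamethasone and IBMX were added (day 2). Each of the 4 conditions was 1 library of immortalized cells. No difference below therefore has a replicate check, no test between conditions was made, and no p-value is given. The 95% confidence intervals are exact binomial intervals of the reads of a gene in the compared libraries. They cover counting error only and so speak of these libraries rather than of the conditions. In bulk RNA, fewer cells of a type and less RNA per cell cannot be told apart.

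MLL4 (KMT2D) and MLL3 (KMT2C) are histone methyltransferases that place H3K4me1 on enhancers, the distal elements through which transcription factors raise the expression of cell-type-specific genes. Adipogenesis is driven by C/EBPβ and C/EBPδ, which act early, and by PPARγ and C/EBPα, which follow and are bound at most fat cell genes. As preadipocytes turn into fat cells they lay down less fibrillar matrix, take their actin stress fibres apart and raise the enzymes of lipid synthesis, fatty acid oxidation and the TCA cycle.

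The libraries were compared through RPKM, for which the authors used between 17198448 and 22986362 mapped reads per library. The sums of the deposited counts were 96.1% of the mapped reads in GFP and 87.8% in Cre cells at day 2. The day 0 libraries were at 99.0% and 99.4%. A count of 3 reads on a transcript of 1 kb corresponds to 0.131 RPKM in GFP and 0.166 RPKM in Cre cells at day 2. The median Cre/GFP log2 ratio over the counted genes was −0.15 at day 2, with middle 50% from −0.78 to 0.51. It was −0.01 at day 0 for the same genes.

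The day 2 ratio moved with exon length and GC content. When counted genes were placed in 10 groups of near equal size by exon length, the median log2 ratio was 0.53 in the shortest group and −0.78 in the longest, as the plot of medians by length and GC content shows. By GC content, it was −0.71 in the group with least GC and 0.68 in the group with most. At day 0 the medians of these groups stayed between −0.18 and 0.09. As deposited, 20.4% of the shortest genes were over 2.5-fold higher in Cre cells, against 4.08% of the longest. Every ratio is therefore also given after its trend over length and GC content was taken off, which left group medians between −0.02 and 0.03. This second value is called the adjusted ratio below. What part of the trend was technical was not tested.

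**Figure D1:**
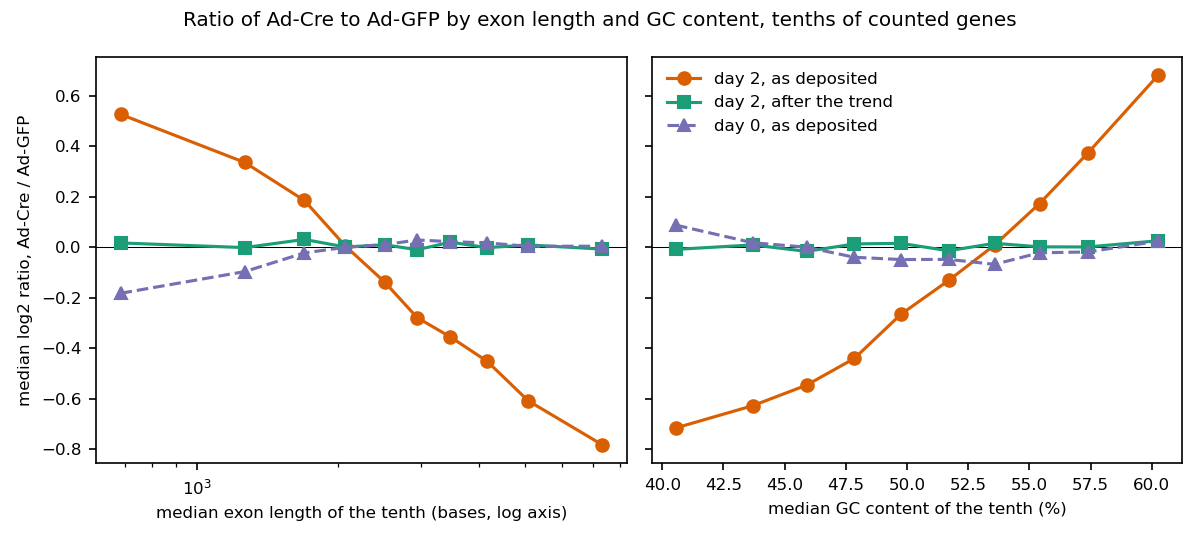
Median log2 of the ratio Ad-Cre over Ad-GFP in 10 groups of counted genes by exon length (left, log axis) and by GC content (right). Circles are day 2 as deposited, squares day 2 after the trend was taken off, and triangles day 0 as deposited; the day 2 medians run from 0.53 to −0.78 with length and from −0.71 to 0.68 with GC content, and those of day 0 stay near 0.

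Positions below are those of NCBI37/mm9. *Mll4* (*Kmt2d*, NM_001033276, chromosome 15 from 98662100 to 98701614) had 6304 and 6316 reads at day 0 and 8530 and 5595 at day 2, in GFP and Cre cells in that order, as in all pairs of values below. The counts cover the whole transcript and not only the floxed exons, so that they do not check the deletion, which rests on the labels. The Cre/GFP log2 ratio at day 2 was −0.26 (−0.31 to −0.21), and −0.12 adjusted. *Mll3* (*Kmt2c*) had 522 and 463 reads at day 0 and 1224 and 451 at day 2, and these whole-transcript counts do not check its deletion either. The day 2 log2 ratio of −1.09 (−1.25 to −0.93) was −0.10 adjusted. Of the 29 counted genes of the MLL3/MLL4 complex and related histone modifiers, 1 was over 2.5-fold lower and 2 were higher as deposited. Among them *Brd3*, which encodes a BET protein that reads acetylated histones, was past the cutoff in the adjusted ratio too, at 2.21.

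As deposited, 1114 counted genes (9.88%) were over 2.5-fold lower in Cre cells than in GFP cells at day 2, and 994 (8.81%) were over 2.5-fold higher. In the adjusted ratio, 645 (5.72%) were lower and 877 (7.77%) higher. Both ratios were past the cutoff for 524 lower genes (4.65%) and 681 higher genes (6.04%). These are the genes called lower and higher below, unless it is said that a count is as deposited. Of the genes lower as deposited, 47.0% stayed in the group, against 68.5% of those higher as deposited. The 1114 genes had a median exon length of 3793 bases and a GC content of 47.0%, and the 994 had 1802 bases and 56.3%, while all counted genes had 2725 bases and 50.7%. For the 524 and 681 genes these medians were 2739 and 2136 bases, and 50.7% and 54.5% GC. With edgeR's TMM factors, 835 genes were lower and 1195 higher, so that lower genes made up 41.1% of those past the cutoff in place of 52.8% as deposited.

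**Figure D2:**
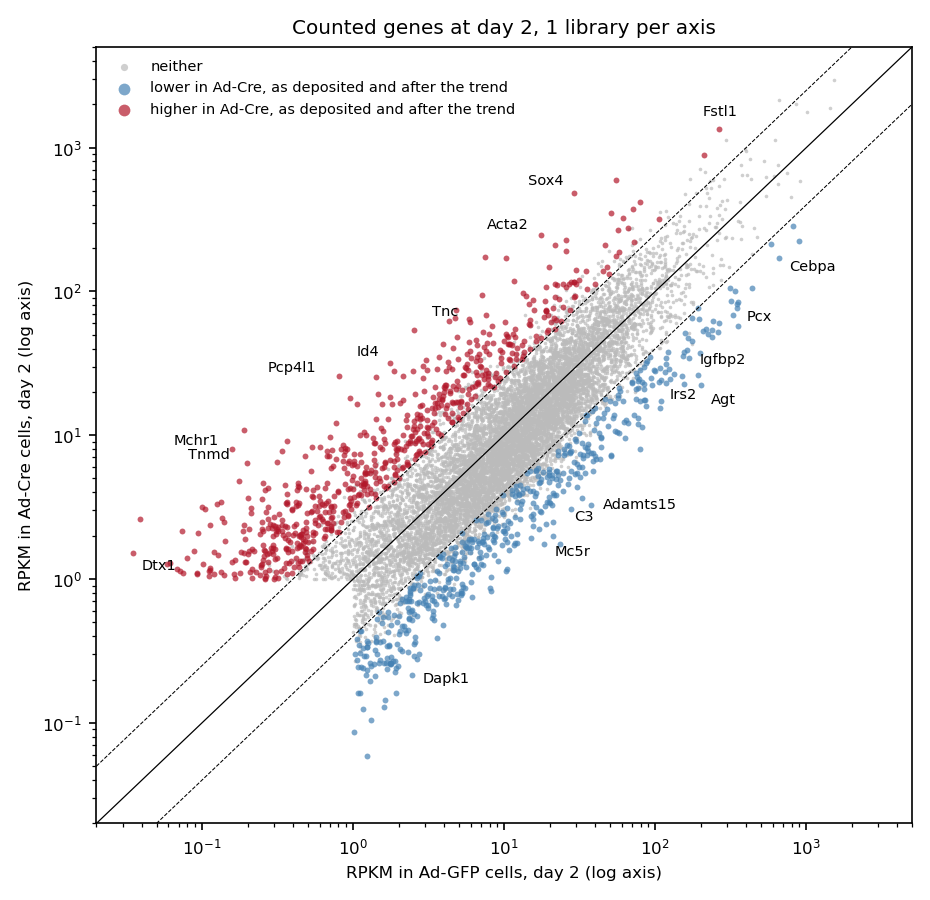
RPKM of counted genes in Ad-GFP (x) and Ad-Cre cells (y) at day 2, both on log axes, with 1 library per axis. Blue points are the 524 lower and red points the 681 higher genes; the solid line marks equal RPKM and the dashed lines 2.5-fold, and the 36 genes without a read in 1 of the libraries are not drawn.

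The sequences that bear on the results are promoters of higher genes, shown because members of the smooth muscle and interferon lists described below hold the element known for their control. The 250 bases up to the RefSeq start site are given 5′ to 3′ on the gene's strand in GRCm38.p6, with the element in capitals. The CArG box is the binding site of serum response factor (SRF). Promoters of *Cnn2* (chr10:79988350-79988599, plus strand), *Myl9* (chr2:156775214-156775463, plus strand) and *Fhl2* (chr1:43196762-43197011, minus strand) each hold 1.
Cnn2: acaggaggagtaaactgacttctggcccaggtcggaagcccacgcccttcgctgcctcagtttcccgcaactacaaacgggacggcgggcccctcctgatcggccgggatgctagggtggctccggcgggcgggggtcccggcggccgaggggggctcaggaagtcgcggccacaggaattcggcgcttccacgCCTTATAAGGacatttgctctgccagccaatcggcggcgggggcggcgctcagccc
Myl9: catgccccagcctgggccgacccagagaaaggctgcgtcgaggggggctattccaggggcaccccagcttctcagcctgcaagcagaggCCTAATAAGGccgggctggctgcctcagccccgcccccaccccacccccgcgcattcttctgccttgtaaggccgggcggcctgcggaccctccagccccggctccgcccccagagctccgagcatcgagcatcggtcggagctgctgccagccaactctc
Fhl2: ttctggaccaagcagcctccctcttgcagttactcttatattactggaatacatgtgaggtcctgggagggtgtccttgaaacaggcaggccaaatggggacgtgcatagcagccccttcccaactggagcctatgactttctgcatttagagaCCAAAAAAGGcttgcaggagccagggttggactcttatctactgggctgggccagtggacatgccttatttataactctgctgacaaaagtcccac
The promoter of *Isg15* (chr4:156200819-156201068, minus strand) holds 3 overlapping matches of the interferon-stimulated response element (GAAA, any 2 bases, GAAA, on either strand), which the factors induced by interferon bind.
Isg15: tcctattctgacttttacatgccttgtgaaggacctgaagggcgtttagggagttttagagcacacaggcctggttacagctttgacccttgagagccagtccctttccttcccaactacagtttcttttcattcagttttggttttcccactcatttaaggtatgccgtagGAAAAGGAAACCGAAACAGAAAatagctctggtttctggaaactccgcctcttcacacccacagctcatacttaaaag
These genes were chosen as the members of each list, up to 3, with most reads in Cre cells among higher genes with at least 100 reads whose promoter holds the element. *Cnn2*, which encodes a calponin, had 1057 and 7347 reads in GFP and Cre cells at day 2. *Myl9*, a myosin light chain of smooth muscle, had 255 and 3317 reads, *Fhl2*, a LIM domain cofactor, 75 and 225 reads, and *Isg15*, a ubiquitin-like protein, 37 and 240 reads. All were higher in the Cre library.

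Genes named for the whole comparison were those with at least 100 reads whose ratio was past 2.5-fold as deposited, adjusted and over its whole interval, and which were not in the list of fat cell genes. There were 355 lower and 418 higher ones, and the 15 with the lowest and the 15 with the highest adjusted ratio are given with their reads in all libraries. Of the 15 highest, only *Sox4*, *Id4* and *Tent5a* were above an RPKM of 1 in GFP cells at day 2. The others were counted through Cre cells alone, which fixed their direction. Of the 15 lowest, *Cyp2f2*, *Cldn15*, *Dio3* and *Dapk1* were counted through GFP cells alone.

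The lowest genes held secreted proteins and receptors. *Agt* (NM_007428, chromosome 8 from 127080434 to 127093606), which encodes angiotensinogen, the precursor of the angiotensins, had 34 and 53 reads at day 0 and 8438 and 737 at day 2, that is 199.6 and 22.2 RPKM at day 2. Its log2 ratio at day 2, here and below Cre to GFP as deposited and with its 95% interval in parentheses, was −3.17 (−3.28 to −3.06), and −3.65 adjusted, the lowest adjusted ratio of all genes that met the rule. Both day 0 libraries were low for *Agt*, and the GFP library of day 2 stood above the other 3. *Mc5r* (NM_013596), a melanocortin receptor, had 1 and 3 reads at day 0 and 488 and 37 at day 2 and a day 2 log2 ratio of −3.37 (−3.89 to −2.89). For *Npr1* (NM_008727, chromosome 3 from 90254513 to 90269788), the receptor of atrial natriuretic peptide, the files held 25 and 28 reads at day 0 and 1957 and 182 at day 2, and the log2 ratio was −3.08 (−3.30 to −2.86). Another annotated gene overlaps 11.7% of the exon bases of *Npr1*. In *Mc5r* and *Npr1*, too, GFP cells at day 2 had the highest of the 4 values. *Adamts15* (NM_001024139, chromosome 9 from 30706740 to 30730037), a secreted metalloprotease, had 29 and 22 reads at day 0 and 5099 and 352 at day 2, and its log2 ratio was −3.51 (−3.67 to −3.35).

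Binding proteins of insulin-like growth factors, which hold these factors in the medium, were also among the 15. *Igfbp2* (NM_008342, chromosome 1 from 72871077 to 72899048) had 37 and 49 reads at day 0 and 5100 and 821 at day 2, a log2 ratio of −2.28 (−2.39 to −2.18), and 167 and 34.3 RPKM at day 2. *Igfbp3* (NM_008343, chromosome 11 from 7106089 to 7113926) had 69 and 5 reads at day 0 and 1172 and 87 at day 2 and a log2 ratio of −3.40 (−3.73 to −3.09). *Igfbp3* was thus low in Cre cells at both days, whereas *Igfbp2* was similar in both kinds of cells at day 0. *Car3* (NM_007606, chromosome 3 from 14863538 to 14872351), a carbonic anhydrase abundant in fat and muscle, had 16 and 10 reads at day 0 and 2766 and 221 at day 2 and a log2 ratio of −3.30 (−3.50 to −3.10). *Cyp2f2*, a cytochrome P450, had 1 and 4 reads at day 0 and 341 and 27 at day 2, and another annotated gene overlaps 13.5% of its exon bases. *Ybx2*, which encodes an RNA-binding Y-box protein of germ cells, had 4 and 4 reads at day 0 and 421 and 50 at day 2, with 9.73% of its 50-base windows matching elsewhere in the genome. *Dapk1*, a kinase that promotes cell death, had 5 and 2 reads at day 0 and 332 and 23 at day 2. Each of *Car3*, *Cyp2f2*, *Ybx2* and *Dapk1* had few reads at day 0 and stood highest in GFP cells at day 2. The non-coding *2310001K24Rik* had 19 and 20 reads at day 0 and 257 and 34 at day 2. It lies beside *Fitm2*, which shares 12.2% of its exon bases on the other strand and was lower as well, at −2.32 (−2.43 to −2.22).

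Some of the lowest genes were already low in Cre cells before differentiation. *Tmem176a* and *Tmem176b*, neighbouring genes of membrane proteins with 4 transmembrane stretches, had low values in the Cre libraries. *Tmem176a* had 270 and 9 reads at day 0 and 370 and 37 at day 2, and *Tmem176b* had 619 and 35 reads at day 0 and 726 and 73 at day 2. *Cldn15*, a claudin of tight junctions, had 155 and 11 reads at day 0 and 167 and 16 at day 2. *Dio3* (NM_172119, chromosome 12 from 111517278 to 111519307), which encodes the deiodinase that inactivates thyroid hormone, had 29 and 5 reads at day 0 and 142 and 18 at day 2. In these genes, as in *Igfbp3*, the Cre library held fewer reads than the GFP library at each day, and their log2 ratios were −5.09, −4.33, −4.0 and −2.72 at day 0 against −2.97, −2.96, −3.03 and −2.63 at day 2. Those of *Agt*, *Npr1*, *Igfbp2* and *Ybx2* were between −0.18 and 0.46 at day 0.

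The highest genes held transcription factors and other regulators, of which *Sox4* had the most reads. *Sox4* (NM_009238), which encodes an HMG box transcription factor of progenitor cells, had 5123 and 5066 reads at day 0 and 1967 and 25557 at day 2. The log2 ratio of *Sox4* at day 2 was 4.05 (3.98 to 4.12), and 4.31 adjusted for length alone, since no GC content was matched to it. The *Sox4* counts of the day 0 libraries were close to each other, and Cre cells at day 2 had the highest value of the 4. *Id4* (NM_031166, chromosome 13 from 48356796 to 48359405), an inhibitor of basic helix-loop-helix factors, had 49 and 171 reads at day 0 and 67 and 956 at day 2 and a log2 ratio of 4.18 (3.83 to 4.56), with another annotated gene over 10.3% of its exon bases. *Dtx1*, an E3 ligase of the Notch pathway, had 1 and 8 reads at day 0 and 3 and 101 at day 2 at a log2 ratio of 5.42 (3.84 to 7.73), an interval widened by the 3 reads of GFP cells. *Zfp575*, a zinc finger protein, had 64 and 68 reads at day 0 and 11 and 236 at day 2, with 9.25% of its windows matching elsewhere.

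Receptors and cell surface proteins were also among the 15 highest. *Mchr1* (NM_145132, chromosome 15 from 81065929 to 81069393), the receptor of melanin-concentrating hormone, had 11 and 6 reads at day 0 and 8 and 314 at day 2, and its log2 ratio of 5.64 (4.65 to 6.87) was 5.42 adjusted, the highest of all genes that met the rule. *Mchr1* had few reads in the other 3 libraries. *Rxfp3* (NM_178717, chromosome 15 from 10963472 to 10967723), a receptor of the relaxin family, had 13 and 218 reads at day 0 and 13 and 265 at day 2 and a log2 ratio of 4.70 (3.90 to 5.63). *Rxfp3* was higher in Cre cells at both days. *Itga9*, the integrin α9 subunit, had 344 and 682 reads at day 0 and 44 and 542 at day 2, and *Flrt3*, a membrane protein with leucine-rich repeats, 178 and 555 reads at day 0 and 22 and 237 at day 2. *Tnmd* (NM_022322, chromosome X from 130385519 to 130400116), tenomodulin, a membrane protein of tendon and of preadipocytes, had 71 and 764 reads at day 0 and 6 and 153 at day 2 and a log2 ratio of 5.02 (3.87 to 6.49). *Itga9*, *Flrt3* and *Tnmd* had fewer reads at day 2 than at day 0 in both kinds of cells, and their lowest value was that of GFP cells at day 2.

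The remaining genes encode enzymes and proteins known from neurons. *Cyp7b1* (NM_007825, chromosome 3 from 17971950 to 18143338), an oxysterol hydroxylase, had 5 and 6 reads at day 0 and 5 and 124 at day 2, so that only Cre cells at day 2 were above an RPKM of 1. *Tent5a* (NM_001160378, chromosome 9 from 85214046 to 85220731), a poly(A) polymerase, had 243 and 1243 reads at day 0 and 235 and 2755 at day 2 and a log2 ratio of 3.90 (3.71 to 4.10). *Uchl1* (NM_011670, chromosome 5 from 67067360 to 67078472), a ubiquitin hydrolase abundant in neurons, had 56 and 364 reads at day 0 and 5 and 225 at day 2, with 18.7% of its exon bases under another annotated gene. *Dclk1*, a microtubule-binding kinase, had 375 and 1143 reads at day 0 and 36 and 452 at day 2, and *Kif1a*, a kinesin of axons, 110 and 864 reads at day 0 and 13 and 174 at day 2. *Pcp4l1* (NM_025557, chromosome 1 from 173103393 to 173126399), a small protein related to one of Purkinje cells, had 82 and 355 reads at day 0 and 29 and 732 at day 2. *Uchl1*, *Dclk1*, *Kif1a* and *Pcp4l1* were higher in the Cre library at both days. Markers that define neurons and glia were near the floor: of 8, 1 was above an RPKM of 1 in Cre cells at day 2 and 0 were in GFP cells, with sums of 2.01 and 0.926 RPKM.

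**Figure D3:**
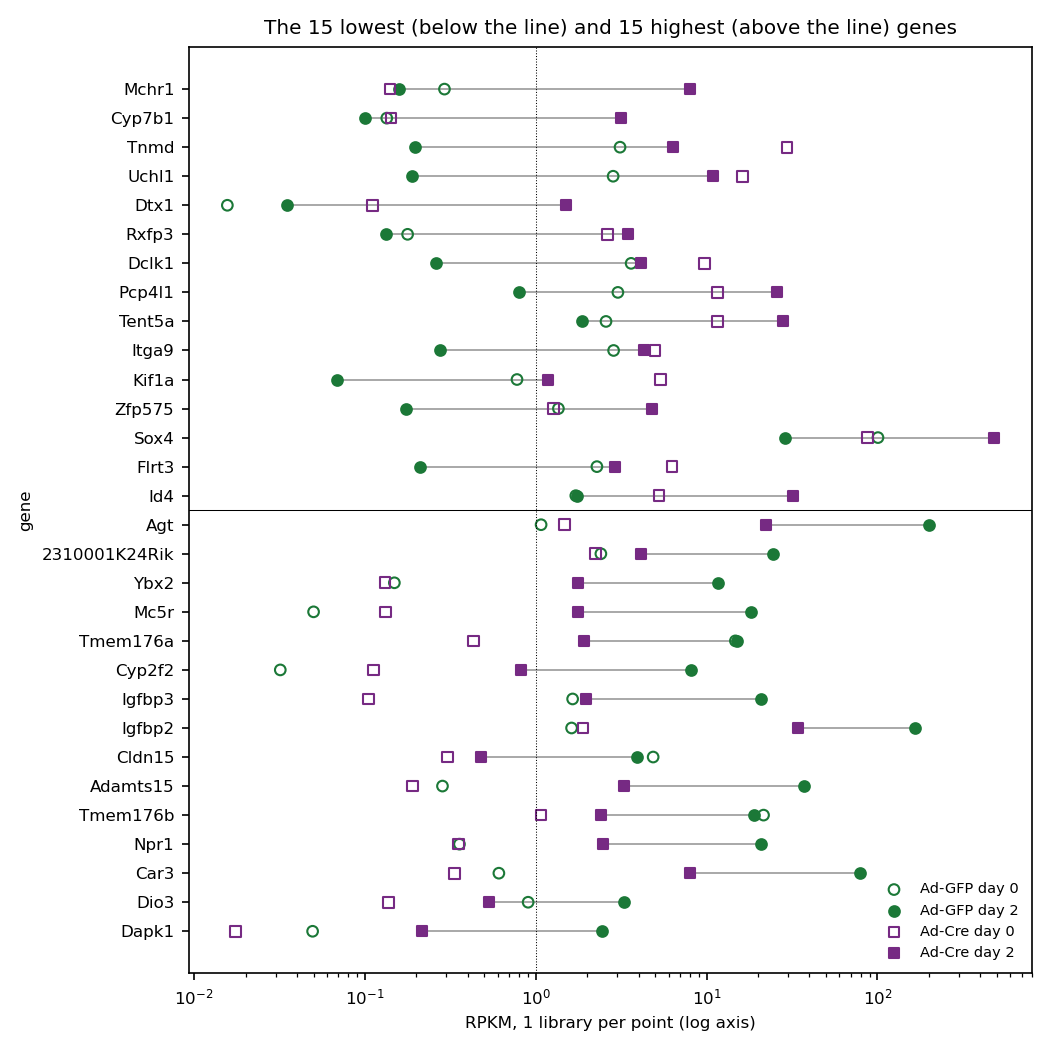
RPKM (log axis) of the 15 lowest and 15 highest named genes in each of the 4 libraries, 1 library per point, with Ad-GFP as circles and Ad-Cre as squares, open at day 0 and filled at day 2. Grey lines join the day 2 libraries, and the dotted line marks an RPKM of 1; in the lower genes the filled circle, and in the higher genes the filled square, lies to the right.

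Lists of genes were followed next, each through its members counted at day 2. The plot of list members shows all 37 lists. Medians of a list are set beside the median of all counted genes, −0.15 as deposited and 0.00 adjusted, and its counts beside the shares of 4.65% lower and 6.04% higher among all counted genes. The genes of a list were chosen with earlier results of these data known, and no list was tested. A gene counted through 1 library alone had to be lower in the other, so that counts describe the counted genes and not all listed genes.

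**Figure D4:**
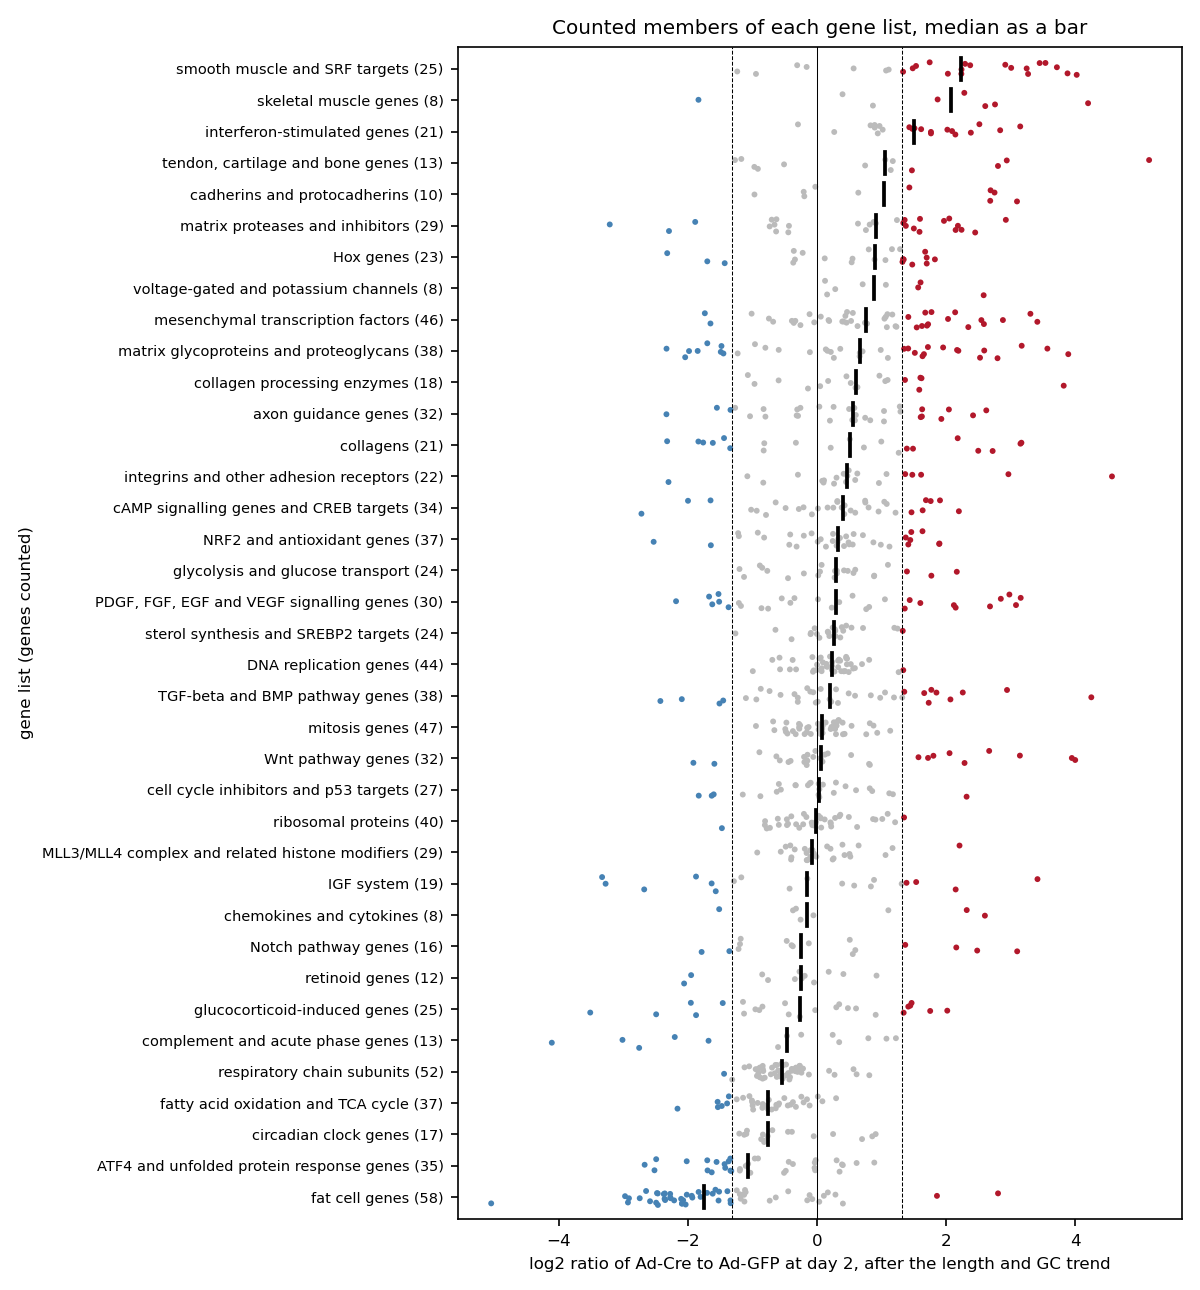
Adjusted log2 of the ratio Ad-Cre over Ad-GFP at day 2 for each counted member of the 37 gene lists, in order of their medians, which are drawn as bars; the number counted is in parentheses. Blue points are below and red points above 2.5-fold (dashed lines); the smooth muscle list has the highest median, 2.23, and the fat cell list the lowest, −1.75.

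Fat cell genes were lower in most members. Of 73 listed genes, 58 were counted, and of these 33 were lower and 2 higher, and the median log2 ratio was −1.81 as deposited and −1.75 adjusted. Members named by the rule were *Irs2*, the docking protein of the insulin receptor, with 13866 and 1855 reads at day 2 and a log2 ratio of −2.55 (−2.62 to −2.48), *Cidec*, a lipid droplet protein, with 4116 and 717 reads at a log2 ratio of −2.17 (−2.29 to −2.06), and *Adrb3*, the β3 adrenergic receptor, with 108 and 12 reads at a log2 ratio of −2.82 (−3.82 to −1.96). The higher members were *Elovl6*, also named by the rule, an elongase of fatty acids, with 654 and 1827 reads at a log2 ratio of 1.83 (1.70 to 1.96), and *Cebpd*, the early regulator, with 3000 and 7699 reads at a log2 ratio of 1.71 (1.65 to 1.77). *Elovl6* has 7.81% of its windows matching elsewhere. *Cebpb*, the other early regulator, was within the cutoff, at 1.05 (1.02 to 1.08), or 0.17 adjusted. *Cebpa* and *Pparg*, which act later, were lower, at −1.96 (−2.0 to −1.93) and −2.36 (−2.55 to −2.16), and were at −1.28 and −1.73 at day 0, with 818 and 381 and with 105 and 36 reads. Of the 33 lower members, 5 were counted through GFP cells alone. Defining markers of brown fat were near the floor at day 2. Of 8, *Prdm16* alone was above an RPKM of 1, at 2.14 and 0.677 RPKM, and *Ucp1* and *Cidea* had at most 1 read in either library. None of the 8, chosen as markers of brown adipocytes, was above an RPKM of 1 in the undifferentiated cells of day 0. *Prdm16* had 82 and 116 reads there. The markers were thus low or absent and do not check the label of brown preadipocytes. The paper followed *Prdm16* and *Ucp1* during adipogenesis by qRT-PCR, which was not compared here.

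Enzymes of fatty acid oxidation and the TCA cycle were mostly below 0. Of 38 listed genes, 37 were counted, and of these 6 were lower and 0 higher, or 10 and 0 as deposited, and the median log2 ratio was −0.95 as deposited and −0.76 adjusted. *Pcx*, pyruvate carboxylase, had 867 and 865 reads at day 0 and 32947 and 6094 at day 2 and a day 2 log2 ratio of −2.08 (−2.12 to −2.04). *Idh3a*, a subunit of isocitrate dehydrogenase, had 689 and 914 reads at day 0 and 8985 and 1692 at day 2, and *Dlat*, a subunit of pyruvate dehydrogenase, 737 and 745 reads at day 0 and 4081 and 709 at day 2. The log2 ratios of *Idh3a* and *Dlat* were −2.06 (−2.13 to −1.98) and −2.17 (−2.29 to −2.06). In *Pcx*, *Idh3a* and *Dlat* the day 0 libraries were close to each other. Respiratory chain subunits, which use the electrons these enzymes provide, stayed within the cutoff as deposited, and of 52 counted, 0 were lower and 0 higher, with a median of −0.20. Adjusted, the median was −0.55, and 1 of them, *Cyc1*, was past the cutoff at −1.44. The ATP synthase subunits *Atp5b* and *Atp5a1* had the most reads, with log2 ratios of −0.81 (−0.84 to −0.78) and −0.69 (−0.72 to −0.66).

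Some genes of the ATF4 response were lower. ATF4 raises amino acid synthesis and uptake when the cell lacks amino acids or its endoplasmic reticulum is under stress. All 35 genes of the ATF4 and unfolded protein response list were counted, and 10 were lower and 0 higher. Their median was −0.88 as deposited and −1.07 adjusted for the whole list, and 1 of the 10 was counted through GFP cells alone. *Trib3*, a pseudokinase, had 776 and 1010 reads at day 0 and 3732 and 637 at day 2 and a log2 ratio of −2.20 (−2.32 to −2.08). *Chac1*, which breaks down glutathione, had 550 and 804 reads at day 0 and 1928 and 393 at day 2 at a log2 ratio of −1.94 (−2.10 to −1.79). *Slc7a5*, a carrier of large neutral amino acids, had 5057 and 8911 reads at day 0 and 17487 and 3473 at day 2 at a log2 ratio of −1.98 (−2.03 to −1.93), and *Nupr1*, a small stress-induced protein, had 357 and 82 reads at day 2 at a log2 ratio of −1.77 (−2.14 to −1.42). In each, GFP cells at day 2 had the highest of the 4 values. *Asns* and *Psat1*, enzymes of asparagine and serine synthesis, had log2 ratios of −1.92 (−2.02 to −1.83) and −1.95 (−2.01 to −1.89). Chaperones and isomerases of the endoplasmic reticulum, picked from the list after their values were seen, were not among those lower. *Hspa5*, *Hsp90b1*, *Calr*, *Pdia3*, *Pdia4* and *Pdia6* had adjusted log2 ratios of −0.02, 0.35, 0.40, 0.89, −0.51 and 0.61. *Atf4* itself was at −0.90 (−0.95 to −0.85), within the cutoff.

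Among complement and acute phase genes, whose proteins fat tissue and liver secrete, 13 of 33 listed were counted, and of these 5 were lower and 0 higher. Of the 5, 2 were counted through GFP cells alone, *C4b* among them. *C3*, the central complement component, had 14 and 17 reads at day 0 and 3883 and 336 at day 2 and a day 2 log2 ratio of −3.18 (−3.35 to −3.02). *Hp*, haptoglobin, had 29 and 28 reads at day 0 and 4885 and 1251 at day 2 at a log2 ratio of −1.61 (−1.71 to −1.53), and *C4b* had 19 and 11 reads at day 0 and 327 and 27 at day 2 at a log2 ratio of −3.25 (−3.87 to −2.68), with 21.9% of its windows matching elsewhere. *C1s1*, a complement protease, had 476 and 24 reads at day 0 and 672 and 114 at day 2, and was low in Cre cells at day 0 as well. Another annotated gene overlaps 22.4% of its exon bases. The remaining lower member, *Saa3*, had only 16 and 1 reads at day 2. The median of the list was −0.68 as deposited and −0.47 adjusted.

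Smooth muscle genes and SRF targets were higher in many of their members. Of 29 listed genes, 25 were counted, 5 of them through 1 library alone. Of the 25, 16 were higher and 0 lower, 5 of the 16 through Cre cells alone, and as deposited 17 were higher and 2, *Mylk* and *Vcl*, lower. The median log2 ratio was 1.94 as deposited and 2.23 adjusted. *Acta2*, smooth muscle actin (NM_007392, chromosome 19 from 34315580 to 34329826), had 23576 and 84322 reads at day 0 and 714 and 7928 at day 2, or 17.5 and 247 RPKM at day 2, and a log2 ratio of 3.82 (3.71 to 3.94). *Cnn1*, calponin (NM_009922, chromosome 9 from 21903725 to 21914074), had 983 and 4055 reads at day 0 and 35 and 438 at day 2 at a log2 ratio of 4.0 (3.50 to 4.54). *Tagln*, transgelin, had 8703 and 20253 reads at day 0 and 261 and 2700 at day 2 at a log2 ratio of 3.72 (3.54 to 3.91), and *Lmod1*, leiomodin, which nucleates actin filaments, 669 and 1792 reads at day 0 and 39 and 330 at day 2 at a log2 ratio of 3.43 (2.95 to 3.95). In *Acta2*, *Cnn1*, *Tagln* and *Lmod1* the 4 libraries had the same order, highest in Cre cells at day 0 and lowest in GFP cells at day 2. *Cnn1* and *Lmod1*, at 0.766 and 0.430 RPKM in GFP cells at day 2, were counted through Cre cells alone. For these genes a GFP value below that of Cre cells at day 2 was a condition. From day 0 to day 2, the median log2 ratio of the list was −2.73 in GFP and −2.21 in Cre cells, and the Cre/GFP log2 ratio at day 0 was at a median of 0.74. These medians include the 5 genes counted through Cre cells alone, for which a low GFP value at day 2 was a condition. The 5 markers that define smooth muscle summed to 1128 and 3221 RPKM at day 0 and 26.1 and 360 RPKM at day 2, and whether smooth muscle-like cells were present was not tested. The coactivator genes *Mrtfa* and *Mrtfb* were at 1.47 (1.39 to 1.54) and −1.08 (−1.22 to −0.95).

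The CArG box shown above for *Cnn2*, *Myl9* and *Fhl2* was found in the promoters, 250 bases before to 50 after the start, of 6 of 21 genes of this list that had 1 in the table (28.6%), and in 1.32% of the promoters of the 8864 counted genes that had one. It was in 1.90% of the promoters of higher and in 0.796% of those of lower genes. The 6 were *Cnn2*, *Myl9*, *Fhl2*, *Fhl1*, *Srf* and *Vcl*, the last of which was lower as deposited. Only exact matches of CC, 6 bases of A or T, and GG were counted, so that a box with another base in its core was missed. *Acta2*, *Tagln* and *Cnn1* were not among the 6, which does not show that their promoters lack a box. The CArG box was added to the motifs after the data had been seen, and the list had been drawn up from known targets of SRF.

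Skeletal muscle genes were mostly below the threshold, with 8 of 40 counted, 7 of them through 1 library alone. *Actc1*, *Acta1*, *Tnnt3*, *Tnnc1* and *Myl4* were past the higher cutoff, but all 5 were counted through Cre cells alone, which fixed their direction. None of the 5 had 100 reads in a day 2 library. *Acta1*, skeletal muscle actin, had 453 and 1356 reads at day 0 and 12 and 88 at day 2, and *Actc1*, cardiac actin, 243 and 823 reads at day 0 and 3 and 52 at day 2. *Pax3*, a regulator of muscle precursors, was at 0.28 (−0.14 to 0.69), within the cutoff. Among 7 markers that define skeletal muscle, only *Acta1* was above an RPKM of 1 in any library.

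Interferon-stimulated genes, which act against viruses and present antigens, were counted in 1 library alone for most of their counted members. Of 41 listed genes, 21 were counted, 12 of them through 1 library alone. Of the 21, 8 were past the higher cutoff and 0 past the lower, but 7 of the 8 were counted through Cre cells alone, which fixed their direction. *Isg15* was the other one. The 9 genes counted in both libraries had a median of 1.06 as deposited and 0.94 adjusted. *Psmb8*, a subunit of the immunoproteasome, had 100 and 186 reads at day 0 and 19 and 157 at day 2 and a log2 ratio of 3.40 (2.71 to 4.17), with another annotated gene over 6.84% of its exon bases. *Isg15* had 456 and 1160 reads at day 0 and 37 and 240 at day 2 at a log2 ratio of 3.05 (2.54 to 3.59), with 8.91% of its windows matching elsewhere. *Xaf1*, which promotes cell death, had 364 and 874 reads at day 0 and 21 and 109 at day 2 at a log2 ratio of 2.73 (2.04 to 3.47), with 5.85% of its windows matching elsewhere. *Irf7*, the transcription factor that amplifies the interferon response, had 311 and 426 reads at day 0 and 38 and 154 at day 2 at a log2 ratio of 2.37 (1.85 to 2.92). As in the smooth muscle list, GFP cells at day 2 had the lowest of the 4 values in each of these. From day 0 to day 2, the median log2 ratio of the 21 genes was −2.49 in GFP and −1.31 in Cre cells. These medians include the 12 genes counted through 1 library alone. For those counted through Cre cells alone, a low GFP value at day 2 was a condition, which by itself pulls the GFP median down. Both kinds of cells had been infected with an adenovirus. The interferon-stimulated response element stood in 8 of 17 promoters of the list (47.1%), against 2.62% of those of counted genes, 2.96% of those of higher and 3.45% of those of lower genes. The promoters of *Psmb8*, *Xaf1* and *Irf7* were not among the 8. The list had been drawn up from genes known to respond to interferon.

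Other promoter features were counted in the same way. TATAAA was in 7.69% of the promoters of lower genes and 8.46% of those of higher genes, against 6.34% of those of all counted genes. CCAAT was in 36.3% and 36.4%, against 39.7%, and in 24 of 32 promoters of the ATF4 and unfolded protein response list. The AP-1 site TGANTCA was in 5.57% and 5.71%, against 4.22%, and TGACGTCA, the CRE, in 3.18% and 2.33%, against 3.38%. TTGCGCAA, a C/EBP site, was in 0 of 377 promoters of lower genes and 1 of 473 of higher genes, against 0.259% of counted genes. Motifs were searched on both strands, and a CArG box can contain TATAAA or CCAAT, while none of the other motifs contains another. The median number of CG dinucleotides in the window was 21 in lower, 16 in higher and 22 in all counted genes, and 14.9%, 8.88% and 4.82% of these promoters had under 5.

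Collagens were past the cutoff on both sides. Of 33 listed collagens, 21 were counted, and of these 6 were lower and 5 higher. The lower ones were *Col4a5*, *Col6a1*, *Col6a2*, *Col6a3*, *Col15a1* and *Col18a1*, which belong to basement membranes or to beaded filaments around cells. The higher ones were *Col1a2*, *Col8a1*, *Col8a2*, *Col23a1* and *Col27a1*. Of these, *Col8a2* and *Col23a1* were counted through Cre cells alone, which fixed their direction. *Col1a2*, a chain of the main fibrillar collagen, had 22002 and 40458 reads at day 0 and 2660 and 10192 at day 2 and a log2 ratio of 2.29 (2.23 to 2.35). *Col27a1*, another fibrillar collagen, had 279 and 510 reads at day 0 and 194 and 1386 at day 2 at a log2 ratio of 3.19 (2.97 to 3.41). *Col8a2*, of the network type, had 196 and 1167 reads at day 0 and 69 and 560 at day 2 at a log2 ratio of 3.37 (3.01 to 3.75), and *Col23a1*, a transmembrane collagen, 14 and 10 reads at day 0 and 36 and 156 at day 2. *Col1a2* was lowest in GFP cells at day 2. Its partner *Col1a1* was at 1.11 (1.06 to 1.15), within the cutoff, as were the fibrillar chains *Col3a1*, *Col5a1* and *Col5a2* at 0.98, 0.32 and 0.74. Adjusted, *Col3a1* and *Col5a2* were at 1.39 and 1.49, past it. *Col4a1* and *Col4a2*, the main collagens of basement membranes, were within the cutoff at −0.98 and −0.69. Of collagen processing enzymes, 4 of 18 were higher and 0 lower, among them *P4ha2*, a prolyl hydroxylase, at 1.60 (1.46 to 1.74), *P3h2*, another prolyl hydroxylase, at 1.34 (0.98 to 1.71), and *Loxl3*, a lysyl oxidase, at 1.35 (1.23 to 1.48). The remaining higher enzyme gene, *Pcolce2*, was counted through Cre cells alone, which fixed its direction. Other annotated genes overlap 28.4% of the exon bases of *P3h2* and 12.8% of those of *Loxl3*.

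Matrix glycoproteins and proteoglycans, too, were split, with 38 of 52 listed counted, 8 of them lower and 12 higher. Of the lower ones 2, *Lama5* among them, and of the higher ones 2, *Ogn* among them, were counted through 1 library alone. *Tnc*, tenascin C (NM_011607, chromosome 4 from 63620819 to 63681760), had 23625 and 31267 reads at day 0 and 965 and 7849 at day 2 and a log2 ratio of 3.37 (3.28 to 3.47). *Ogn*, osteoglycin, had 412 and 617 reads at day 0 and 23 and 140 at day 2. *Fbln5*, a fibulin of elastic fibres, had 4281 and 16797 reads at day 0 and 873 and 3458 at day 2, and *Aspn*, asporin, had 330 and 2745 reads at day 0 and 235 and 829 at day 2. *Tnc*, *Ogn*, *Fbln5* and *Aspn* were all lowest in GFP cells at day 2. The lower genes held components of the basement membrane, the laminin chains *Lama5*, *Lamb1* and *Lamc1* and nidogen 1 (*Nid1*), with log2 ratios of −1.45 (−1.83 to −1.09), −2.77 (−2.83 to −2.70), −2.40 (−2.44 to −2.36) and −2.35 (−2.41 to −2.29). *Lamb2*, another laminin chain, was higher, at 2.25 (2.19 to 2.30). *Lama4* was within the cutoff at −0.50, or 0.16 adjusted, as was *Hspg2*, perlecan, at −0.02. *Lama2* and *Nid2* were past it as deposited, at −1.83 and −1.53, and not adjusted, at −0.96 and −1.23. Basement membrane and fibrillar matrix were not separate lists, and this grouping was made after the values were seen.

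Matrix proteases and inhibitors were counted for 29 of 40 listed, and of these 11 were higher and 3 lower. Of the higher ones 3, *Mmp16* among them, were counted through Cre cells alone, and of the lower ones 1, *Mmp28*, through GFP cells alone. *Mmp16*, a membrane-type metalloprotease, had 418 and 425 reads at day 0 and 51 and 175 at day 2 and a log2 ratio of 2.13 (1.67 to 2.61). *Adamts5*, an aggrecanase, had 12351 and 20167 reads at day 0 and 1069 and 2233 at day 2 at a log2 ratio of 1.41 (1.31 to 1.52). The inhibitors *Timp1* and *Timp3* were higher, at 2.07 (1.84 to 2.31) and 1.46 (1.30 to 1.62). The lower members were *Adamts15*, given above, *Mmp28* with 129 and 25 reads at day 2 at a log2 ratio of −2.02 (−2.70 to −1.39), and *Adamts12* with 4877 and 615 reads at a log2 ratio of −2.64 (−2.76 to −2.52). Another annotated gene overlaps 12.0% of the exon bases of *Mmp28*.

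Transcription factors of mesenchymal cells, which set position and lineage in connective tissue, were counted for 46 of 68 listed, and of these 11 were higher and 2 lower, with a median of 1.02 as deposited and 0.76 adjusted. *Shox2*, a homeobox factor of the limb (NM_013665, chromosome 3 from 66775649 to 66785693), had 511 and 1117 reads at day 0 and 135 and 1003 at day 2 and a log2 ratio of 3.24 (2.98 to 3.51). *Lhx9*, a LIM homeobox factor, had 97 and 334 reads at day 0 and 40 and 171 at day 2 at a log2 ratio of 2.45 (1.94 to 2.98), *Foxp1*, a forkhead factor, 1736 and 2333 reads at day 0 and 1563 and 4444 at day 2 at a log2 ratio of 1.86 (1.77 to 1.94), and *Klf6*, a zinc finger factor, 1253 and 3289 reads at day 0 and 693 and 1985 at day 2 at a log2 ratio of 1.87 (1.74 to 2.0). GFP cells at day 2 had the lowest of the 4 values in each. Of the 11 higher factors 3, *Lhx9* among them, were counted through Cre cells alone, which fixed their direction. Of the 2 lower ones, 1 was counted through GFP cells alone. The lower members were *Zfp423*, a factor of preadipocyte commitment, at −1.69 (−1.96 to −1.43), and *Gata6* at −1.53 (−2.01 to −1.07). Of 39 Hox genes, 23 were counted, and of these 5 were higher and 1 lower. Of the 5, 1 was counted through Cre cells alone. *Hoxa5* had 311 and 215 reads at day 0 and 317 and 834 at day 2 at a log2 ratio of 1.75 (1.56 to 1.94), *Hoxc9* 110 and 361 reads at day 2 at a log2 ratio of 2.06 (1.75 to 2.39), *Hoxb6* 59 and 162 reads at a log2 ratio of 1.81 (1.37 to 2.26), and *Hoxd8*, the lower one, 75 and 22 reads at day 0 and 219 and 47 at day 2 at a log2 ratio of −1.87 (−2.36 to −1.41).

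Signalling genes were seen on both sides. Of 56 listed Wnt pathway genes, 32 were counted, 8 of them through 1 library alone, and of the 32, 7 were higher, 4 of them counted through Cre cells alone, and 2 lower. The higher ones named by the rule were *Rspo3*, *Wnt6*, *Ccn4* and *Wnt11*. *Rspo3*, an R-spondin that enhances Wnt signals, had 247 and 566 reads at day 0 and 97 and 796 at day 2 and a log2 ratio of 3.39 (3.08 to 3.71), and *Wnt6*, a ligand, 2 and 3 reads at day 0 and 6 and 123 at day 2 at a log2 ratio of 4.71 (3.54 to 6.18). *Wnt11* had 8 and 15 reads at day 0 and 27 and 161 at day 2 at a log2 ratio of 2.93 (2.33 to 3.57), and *Ccn4* (WISP1) 2927 and 12519 reads at day 0 and 562 and 2152 at day 2 at a log2 ratio of 2.29 (2.15 to 2.42). The lower ones were *Axin2*, a target of β-catenin, with 9 and 4 reads at day 0 and 282 and 52 at day 2 at a log2 ratio of −2.09 (−2.54 to −1.66), and *Lef1*, a partner of β-catenin, with 6 and 25 reads at day 0 and 297 and 68 at day 2 at a log2 ratio of −1.78 (−2.18 to −1.39). The ligands *Wnt6* and *Wnt11* were counted through Cre cells alone, at 0.126 and 0.421 RPKM in GFP cells, which fixed their direction. Of the 2 lower genes, 1 was counted through GFP cells alone.

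Of 58 listed TGF-beta and BMP pathway genes, 38 were counted, and of these 8 were higher and 4 lower. *Fstl1*, a secreted follistatin-like protein (NM_008047, chromosome 16 from 37776959 to 37836600), had 26810 and 31941 reads at day 0 and 22013 and 87670 at day 2, or 265 and 1347 RPKM at day 2, the largest read count among the named genes in Cre cells, and a log2 ratio of 2.34 (2.32 to 2.37). *Nbl1*, a BMP antagonist, had 1039 and 1354 reads at day 0 and 309 and 2166 at day 2 at a log2 ratio of 3.16 (2.99 to 3.34). The receptors *Tgfbr2* and *Tgfbr3* were lower, at −2.09 (−2.15 to −2.02) and −2.26 (−2.33 to −2.19), and so was *Gdf15*, a stress-induced ligand, with 162 and 50 reads at day 2 at a log2 ratio of −1.35 (−1.83 to −0.88). *Gdf15* was at −1.20 with TMM factors and thus within the cutoff. Of 28 listed Notch pathway genes, 16 were counted, and of these 4 were higher and 2 lower, 1 of the 2 through GFP cells alone. The Notch target *Hey1* had 81 and 1613 reads at day 0 and 130 and 771 at day 2. *Hes1*, another target, had 467 and 1314 reads at day 0 and 331 and 1186 at day 2. Both were higher in Cre cells at both days. *Maml2*, a coactivator, had 844 and 1576 reads at day 0 and 225 and 550 at day 2 and *Numbl*, related to the inhibitor *Numb*, 1745 and 2634 reads at day 0 and 924 and 2867 at day 2. *Hey2*, a further Notch target, was lower at day 2, at −2.28 (−3.35 to −1.35).

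Growth factor genes of the PDGF, FGF, EGF and VEGF families were counted for 30 of 63 listed, and of these 8 were higher and 5 lower. Of the 8, 3 were counted through Cre cells alone. *Fgf7*, a ligand of epithelial receptors, had 1207 and 1059 reads at day 0 and 65 and 296 at day 2 and a log2 ratio of 2.54 (2.15 to 2.95), and *Nrp1*, a coreceptor of VEGF and semaphorins, 7485 and 8649 reads at day 0 and 7692 and 28586 at day 2 at a log2 ratio of 2.24 (2.21 to 2.28). *Fgfr2*, the receptor of FGF7, had 389 and 169 reads at day 0 and 6078 and 687 at day 2 at a log2 ratio of −2.79 (−2.91 to −2.68), and was highest in GFP cells at day 2. *Bdnf*, a neurotrophin, had 638 and 742 reads at day 0 and 151 and 312 at day 2 at a log2 ratio of 1.40 (1.11 to 1.69). *Vegfa*, which promotes vessel growth, was lower, at −1.97 (−2.03 to −1.92). In the IGF system, 19 of 22 listed genes were counted, 6 of them lower and 3 higher. Of the 6, 3 were counted through GFP cells alone, *Htra3* among them, which fixed their direction. Besides *Igfbp2* and *Igfbp3*, *Igfbp5* was lower, at −2.20 (−2.37 to −2.04), as was *Htra3*, a protease, with 83 and 6 reads at day 0 and 147 and 26 at day 2. *Pappa*, the protease that cuts IGF-binding proteins, was higher, with 263 and 1534 reads at day 0 and 1400 and 5903 at day 2 at a log2 ratio of 2.43 (2.34 to 2.51), as were *Igf2* and *Htra1*, at 1.49 (1.43 to 1.55) and 2.51 (2.33 to 2.71). The receptor *Igf1r* was at 0.90 (0.82 to 0.97) as deposited and 1.39 adjusted.

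The agents added at day 0 act through known genes, which were given lists of their own. Of 25 counted genes that glucocorticoids such as dexamethasone induce, 5 were lower and 4 higher. Of the 5, 2 were counted through GFP cells alone. *Zbtb16*, a transcription factor, had 14 and 25 reads at day 0 and 4160 and 672 at day 2 and a log2 ratio of −2.28 (−2.40 to −2.16), and *Angptl4*, a secreted inhibitor of lipoprotein lipase that is also in the fat cell list, 13 and 9 reads at day 0 and 1769 and 236 at day 2 at a log2 ratio of −2.56 (−2.76 to −2.36). On the other side, *Dusp1*, a MAP kinase phosphatase, had 383 and 631 reads at day 0 and 240 and 914 at day 2 at a log2 ratio of 2.28 (2.07 to 2.49), and *Nfkbia*, the inhibitor of NF-κB, 534 and 572 reads at day 0 and 1138 and 3391 at day 2 at a log2 ratio of 1.93 (1.83 to 2.02). Genes of this list thus lay on both sides. *Fkbp5* and *Tsc22d3*, which respond to glucocorticoids in most cells, were at −0.85 (−0.89 to −0.82) and −1.40 (−1.48 to −1.32), or −0.50 and −1.15 adjusted. Of 34 genes of cAMP signalling, which IBMX raises, 3 were lower and 3 higher, 1 of the higher ones counted through Cre cells alone. The lower ones were *Adcy5*, *Adcy9* and *Prkar2b*, that is a pair of adenylyl cyclases and a regulatory subunit of protein kinase A. *Adcy5* had 10 and 20 reads at day 0 and 2345 and 307 at day 2, and *Prkar2b* had 614 and 574 reads at day 0 and 5575 and 834 at day 2. The log2 ratios of *Adcy5*, *Adcy9* and *Prkar2b* were −2.58 (−2.76 to −2.41), −1.95 (−2.22 to −1.68) and −2.39 (−2.50 to −2.29). The higher ones were the nuclear receptors *Nr4a1* and *Nr4a3*, at 1.78 (1.60 to 1.96) and 2.05 (1.22 to 2.96), and *Creb3l1*, a membrane-bound transcription factor, at 2.16 (1.92 to 2.40).

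Of 44 listed antioxidant genes 37 were counted, and of these 7 were higher, 1 of them through Cre cells alone, and 2 lower. Catalase (*Cat*), a peroxisomal enzyme, had 686 and 800 reads at day 0 and 4933 and 968 at day 2 and a log2 ratio of −2.0 (−2.10 to −1.90), and *Mgst1*, a microsomal glutathione transferase, had 28 and 3 reads at day 0 and 327 and 47 at day 2 and was low in Cre cells at both days. *Gpx7* and *Gpx8*, peroxidases of the endoplasmic reticulum, were higher. *Gpx7* had 437 and 622 reads at day 0 and 94 and 401 at day 2, and *Gpx8* had 573 and 818 reads at day 0 and 173 and 393 at day 2. The metallothioneins *Mt1* and *Mt2*, which bind zinc and are also induced by glucocorticoids, were at 2.09 (2.03 to 2.15) and 2.41 (2.31 to 2.51), or 1.41 and 1.44 adjusted.

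Adhesion and guidance genes were higher more often than lower. Of 36 listed cadherins and protocadherins 10 were counted, of which 4 were higher and 0 lower. Of 43 integrins and other adhesion receptors 22 were counted, with 3 higher and 1 lower, of 58 axon guidance genes 32, with 7 and 2, and of 51 channel genes 8, with 3 and 0. Among the higher genes, 1 cadherin, 1 adhesion receptor, 3 guidance genes and 1 channel gene were counted through Cre cells alone. This fixed their direction. The lower adhesion receptor and 1 of the lower guidance genes were counted through GFP cells alone. The cadherins *Pcdh19*, *Fat4*, *Pcdh18* and *Cdh13* had log2 ratios of 2.22 (2.07 to 2.37), 2.01 (1.87 to 2.14), 1.88 (1.62 to 2.14) and 2.53 (1.86 to 3.27). *Ncam1*, the neural cell adhesion molecule, had 2470 and 3105 reads at day 0 and 1273 and 4640 at day 2 at a log2 ratio of 2.22 (2.13 to 2.31), and *Mcam*, another of its family, was at 1.50 (1.22 to 1.78). The calcium channel subunits *Cacna1a* and *Cacnb3* were at 1.48 (1.06 to 1.90) and 2.14 (2.02 to 2.26). Among guidance genes, the semaphorins *Sema6b* and *Sema6c* were at 2.42 (1.79 to 3.09) and 3.0 (2.80 to 3.21), and *Epha7*, an ephrin receptor, had 161 and 310 reads at day 0 and 111 and 276 at day 2 at a log2 ratio of 1.66 (1.34 to 2.0). Another semaphorin, *Sema6d*, and the integrin *Itga6* were lower. *Sema6d* had 99 and 38 reads at day 0 and 374 and 34 at day 2, and *Itga6* had 149 and 64 reads at day 0 and 465 and 50 at day 2, and 6.66% and 6.52% of their windows match elsewhere. Both were lower in the Cre library at day 0 too. Of 30 tendon, cartilage and bone genes 13 were counted, 5 of them through 1 library alone, and of the 13, 3 were higher and 0 lower: *Tnmd*, *Pth1r*, the receptor of parathyroid hormone, with 63 and 390 reads at day 0 and 127 and 1128 at day 2, and *Comp*, a cartilage matrix protein, with 14 and 4 reads at day 0 and 14 and 109 at day 2. *Tnmd* and *Comp* were counted through Cre cells alone, which fixed their direction.

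Few proliferation genes were past the cutoff. Of 44 DNA replication genes 0 were lower and 0 higher as deposited, with medians of 0.04 and 0.23 adjusted, and of 47 mitosis genes 1, *Ect2*, was lower as deposited and 0 adjusted, with medians of −0.35 and 0.08. *Mcm2*, a subunit of the replicative helicase, had 8390 and 4029 reads at day 2, and *Mki67*, the proliferation antigen Ki-67, 6655 and 3272 reads, with log2 ratios of −0.71 (−0.76 to −0.65) and −0.67 (−0.73 to −0.61), or −0.69 and 0.30 adjusted. *Dnmt1*, the maintenance DNA methyltransferase, and *Top2a*, a topoisomerase, which had the most reads beside these in their lists, were at 0.23 and 0.08 adjusted. Ribosomal protein genes, which are short, were at a median of 0.40 as deposited and −0.02 adjusted, and 4 of 40 were higher as deposited, of which *Rpl37* alone was higher adjusted, with 33.6% of its windows matching elsewhere. Circadian clock genes had 4 of 17 lower as deposited and 0 adjusted, with medians of −0.86 and −0.77. *Per1*, which glucocorticoids induce, and *Tef*, an output regulator of the clock, had the most reads and were at 1.08 (1.01 to 1.16) and −1.07 (−1.15 to −0.99). Sterol synthesis genes had 1 of 24 on either side as deposited and a median of −0.04, with their regulators *Srebf2* and *Scap* at −0.04 (−0.09 to 0.02) and −0.41 (−0.48 to −0.34). Glycolysis genes had 4 of 24 lower and 2 higher as deposited, of which *Slc16a3*, a lactate carrier, and *Eno2*, an enolase, were higher adjusted too, at 2.46 (2.28 to 2.64) and 1.47 (1.22 to 1.73) as deposited. Among cell cycle inhibitors and p53 targets 1 of 27, *Gadd45a*, was lower, with 840 and 201 reads at day 2, and 1, *Fas*, was higher, at 2.03 (1.28 to 2.83). Of 12 retinoid genes 2 were lower, among them *Aldh1a7* with 306 and 45 reads, and of 8 chemokines and cytokines 2 were higher, *Il11* and *Ccl27a*, with 6 and 39 reads and 11 and 84 reads. *Fas*, *Il11* and *Ccl27a* were counted through Cre cells alone, which fixed their direction, and 1 of the lower retinoid genes through GFP cells alone. The chemokine *Cxcl12* and the growth factor *Csf1* had more reads, 8298 and 3579 reads and 1439 and 2133 reads, and were within the cutoff. Another annotated gene overlaps 19.1% of the exon bases of *Gadd45a*, 18.9% of those of *Scap*, 15.6% of those of *Slc16a3*, 10.0% of those of *Wnt11* and 7.04% of those of *Fat4*.

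The day 0 libraries, which the day 2 ratio does not use, show how many of these differences were present before differentiation. Of 10732 counted genes with an RPKM above 1 in at least 1 day 0 library, 256 (2.39%) were over 2.5-fold lower and 137 (1.28%) over 2.5-fold higher in Cre cells at day 0, as deposited. Among the 376 lower genes of day 2 that were expressed at day 0, 56 (14.9%) were lower at day 0 and 6 (1.60%) higher. Among the 577 higher genes of day 2 that were, 68 (11.8%) were higher at day 0 and 33 (5.72%) lower. The remaining 314 and 476 were within the cutoff at day 0. The median log2 ratio at day 0 was −0.11 for the lower and 0.15 for the higher genes, against −2.05 and 2.17 at day 2. Of the lower genes of day 2, 148 were not above an RPKM of 1 in either day 0 library, and of the higher genes 104 were not.

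**Figure D5:**
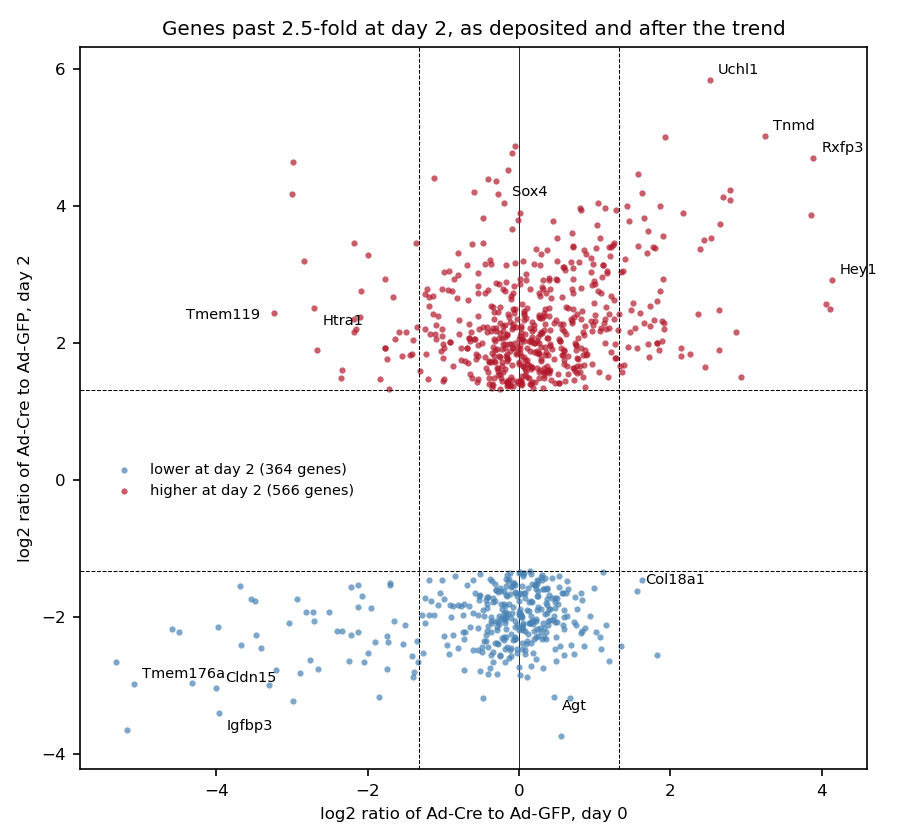
Log2 of the ratio Ad-Cre over Ad-GFP at day 0 (x) and at day 2 (y), as deposited, for 364 lower (blue) and 566 higher (red) genes of day 2 that were expressed at day 0 and had reads in every library. Dashed lines mark 2.5-fold; most points lie between the vertical lines, and few lie in the upper left or lower right corner.

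Genes lower or higher at day 2 were found on every autosome and on the X chromosome. By the NCBI37/mm9 annotation, the median adjusted ratio ran from −0.12 on chromosome 14 to 0.09 on chromosome 5. Lower genes made up between 2.73% (chromosome 17) and 8.15% (chromosome 14) of the counted genes of a chromosome, and higher genes between 3.53% (chromosome 14) and 7.92% (chromosome 15).

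Markers of other cell types were checked as whole lists. None of 6 endothelial, 6 epithelial and 4 mesothelial markers was above an RPKM of 1 in any library. Of 8 macrophage and leukocyte markers, 1 was in Cre cells at day 2, and the sums were 0.520 and 1.32 RPKM. Of 10 fibroblast and preadipocyte markers, 8 were above 1 in GFP and 7 in Cre cells at day 2, with sums of 382 and 753 RPKM, against 2253 and 2137 RPKM at day 0. The higher sum in Cre cells lay in *Col1a1*, *Col1a2* and *Col3a1*, which are matrix genes themselves, with 65.8 and 142, 22.5 and 110, and 199 and 391 RPKM. *Pdgfra* and *Ly6a* were at 7.63 and 6.25 and at 5.46 and 0.871 RPKM at day 2. At day 0 they were at 73.6 and 9.72 and at 9.90 and 0.248 RPKM. Of the 10 markers, 8 were above 1 in GFP and 6 in Cre cells at day 0. *Col1a1*, *Dcn*, *Thy1* and *Pi16* were also lower in Cre cells at day 0, while *Pdgfrb*, *Col1a2* and *Col3a1* were higher. The close sums of day 0 thus do not show that single markers were alike.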

How the data were processed

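RNA-Seq of the 4 conditions (Ad-GFP or Ad-Cre, day 0 or day 2) was used, 1 library each. The reads, 50 bases long, had been aligned by the authors to NCBI37/mm9. The authors deposited the read count on the exons of each RefSeq transcript, a raw count, and RPKM, which the authors made from the count, the exon length and the mapped reads. Submitters' processing notes name bedtools 2.16 and SICER 1.1 for the series. Strand, and how reads with several matches were treated, are not given in the sources used here. The sums of the deposited counts were 17029623 and 22099995 for Ad-GFP and 19388026 and 15831915 for Ad-Cre at day 0 and day 2.

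Transcripts were named through RefSeq GRCm38.p6, which matched 28436 of 29082 (97.8%). Counted genes had an RPKM above 1 in at least 1 day 2 library. Ratios were of RPKM, the cutoff was 2.5-fold (log2 1.32) as in the study, and intervals are exact (Clopper-Pearson) at 95%. The trend of the ratio over exon length and GC content was fitted on genes with at least 100 reads, in 20 bins and 5 rounds, and taken off. It was tested on simulated data. GC content (93.3% of counted genes) and positions came from GENCODE vM1 on mm9, and promoters (8864 counted genes) from RefSeq on GRCm38.p6. Named genes were *Kmt2d* and *Kmt2c*, the 15 lowest and 15 highest by the rule stated in the text, and of each list up to 4 members with at least 100 reads past the cutoff in both ratios, those largest adjusted, or else the 2 with most reads. Some genes that this rule names are not reported here. Other genes were named after their values were seen. The members and lists were chosen with earlier results of these data known. For the 141 named genes with a transcript, windows of 50 bases were matched to the genome and overlap with other genes was measured, and values over 5% are printed beside the genes reported. Software was Python 3.11.15 with numpy 2.4.6, pandas 2.3.3, scipy 1.17.1, numba 0.67.0 and matplotlib 3.10.9, and R 4.3.3 with edgeR 4.0.16 and DESeq2 1.42.0, both used for scaling factors only. Scalings, thresholds, cutoffs and trends were varied.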

Additional observations from a re-analysis of the deposited data

Results flagged for a closer look

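For 14 counted genes, Ad-Cre differed from Ad-GFP by over 2.5-fold in opposite directions at day 0 and day 2, over the whole counting interval at each day. They were chosen after the data had been seen, and the difference between the days was not tested, since each day has 1 library per side. All but *Osr2* were past the cutoff in the adjusted ratio at day 2 as well.

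The 13 genes lower in Ad-Cre cells at day 0 and higher at day 2 held secreted and matrix proteins, membrane proteins and regulators. *Ptn*, pleiotrophin, a secreted growth factor, had log2 ratios of −1.64 at day 0 and 2.05 at day 2. *Ccn3*, a secreted matricellular protein, had −2.08 and 2.76, and *Htra1*, a secreted serine protease, −2.70 and 2.51. *Tmem119*, a membrane protein of osteoblasts and microglia, had −3.24 and 2.45, and the orphan receptor *Gpr153* −1.66 and 2.68. Among regulators, the log2 ratios of *Osr2*, a factor of limb and palate mesenchyme, were −2.57 and 1.68, those of *Hic1*, a repressor, −1.55 and 1.81, and those of *Tle6*, of the Groucho family, −2.67 and 1.91. *Des*, desmin, the intermediate filament of muscle, had 19 reads in the Ad-GFP library and 0 in the Ad-Cre library of day 0, a log2 ratio of at most −2.85 when 3 reads are put in place of 0, and 3.64 at day 2. The remaining genes were *Calml4*, of the calmodulin family, at −3.0 and 4.18, *Lsp1*, which binds actin, at −2.16 and 2.21, *Rab3il1*, an exchange factor of Rab proteins, at −1.74 and 1.76, and the non-coding *C430049B03Rik* at −2.10 and 2.38. At day 2, *Calml4* had 4 and 57 reads, *Ccn3* 16 and 85 and *Des* 5 and 49, in Ad-GFP and Ad-Cre cells. *Des*, at 0.101 RPKM in Ad-GFP cells, was counted through Ad-Cre cells alone, which fixed its direction at day 2. This holds for any other of the 13 counted in that way. *Des* is a member of the smooth muscle list, of which *Acta2*, *Cnn1*, *Tagln* and *Lmod1* were higher in Ad-Cre cells at both days.

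*Col18a1*, a collagen of basement membranes, was the single gene higher at day 0 and lower at day 2, with log2 ratios of 1.56 and −1.61.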

How the results depend on the processing

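The numbers of genes lower and higher at day 2, 1114 and 994 as deposited, were recomputed under 20 other settings, 4 of them chosen after seeing the data. Lower genes numbered 645 with the length and GC trend taken off, 657 with the length trend alone, 584 with the GC trend alone, 557 when only genes with a GC content were kept, 524 when both ratios had to pass, 674 when the whole interval had to pass, 560 with 1 RPKM added, 1993 at 2-fold, 329 at 4-fold and 2217 without a threshold on expression. Higher genes numbered 643 with RPKM above 1 in both libraries, 648 with the whole interval, 632 with 1 RPKM added, 1510 at 2-fold, 455 at 4-fold and 2977 without a threshold. The other settings gave 822 to 1550 lower genes.

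The median log2 ratio, −0.15, was −0.0095 with TMM factors, 0.00072 with DESeq2 size factors, 0 when centred and −0.024 with the sum of counts as denominator. It was 0.0025 with the trend taken off, 0.045 with the length trend alone, 0.12 with the GC trend alone, 0.0030 over genes with a GC content, −0.046 without a threshold and −0.18 over all transcripts. The trend also set the direction of ribosomal protein genes, whose median went from 0.40 to −0.02. Of 143 named genes with a ratio, 128 were past the cutoff, and these 128 had the same sign under the 15 settings that give a ratio per gene. Of the 128, 103 stayed past the cutoff under each of the 15. The rule named genes for being past the cutoff as deposited and adjusted, which fixed their sign under those settings. Settings that change only which genes are counted leave the ratio of a gene as it is. Scaling factors shift every gene by the same amount. These counts are thus no independent check of the named genes. No paired analysis was possible because each condition has 1 library. Depth limits low genes, as the 16 lower and 20 higher genes without a read in 1 library show.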
